A study of Homo sapiens with 30 samples.

Results

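The 30 genes described here are known targets of the transcription factor p53. They were chosen by name and read out across 12 RNA-seq libraries of T47D, a human breast cancer cell line. All 30 were found by symbol among the 60554 annotated genes, and 28 passed the filter on low counts. The remaining 2 were close to absent: TNFRSF10D, a decoy receptor for the death ligand TRAIL, reached at most 0.0479 CPM (read-pair counts scaled to the depth of each library) in any library, and SPATA18, a mitochondrial quality control factor, at most 0.101 CPM. Nothing is said of changes in these 2 genes.

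There were 6 groups with 2 libraries each. Cells transfected with control siRNA (siControl) or with siRNA against the transcription factor gene CEBPA (siCEBPA) were sequenced untreated or after the progestin R5020 at 10 nM, following an arrest of 4 hours in charcoal-treated serum. Cells labelled ICRF were sequenced untreated or after progestin, with no siRNA, arrest or time given for them. ICRF compounds are known as inhibitors of topoisomerase II, an enzyme that passes DNA strands through each other; the labels do not say which compound or dose was used. All cells were at passages 18 to 20. In the siRNA arms, untreated cells are labelled T0 and progestin cells T360 with no unit, so hormone and time cannot be told apart. ICRF likewise cannot be told apart from the other ways in which the 2 kinds of library differ, since no library without ICRF has the same labels. Nothing in the labels says that the 2 libraries of a group came from separate cultures, so the p-values measure the spread between libraries, which may be technical.

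The p53 protein is a stress-activated transcription factor. It binds response elements made of paired half-sites and switches on genes that halt the cell cycle, repair DNA, lower glycolysis and trigger apoptosis, together with genes such as MDM2 that switch p53 off again. Many of these genes also answer to factors other than p53. T47D carries mutant p53, and p53 activity was not measured here. Changes in these genes are therefore not read as changes in p53 activity.

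Library totals ran from 57364785 to 148624099 read pairs counted in genes, with siControl untreated replicate 2 the deepest. Markers of luminal breast epithelium summed to between 5021 and 10628 CPM in every library, while markers of endothelial and blood cells summed to at most 0.767 and 0.175 CPM. Of 5 fibroblast markers, 4 stayed under 1 CPM and COL1A1 reached 69.1 CPM. CEBPA, the gene targeted by siRNA, stood at 47.7 and 54.4 CPM in the untreated siControl libraries and at 10.7 and 12.1 CPM in the untreated siCEBPA libraries. With progestin it stood at 207 and 204 CPM in siControl and at 57.5 and 62.2 CPM in siCEBPA, and the ICRF libraries held 38.1 and 38.3 CPM untreated and 89.7 and 87.3 CPM with progestin. The siRNA groups did not overlap, and CEBPA also rose with hormone in each background. In bulk RNA, fewer cells with a transcript and less of it per cell cannot be told apart.

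Some of the 30 genes have a p53 half-site just ahead of an annotated start, and these sequences are shown because they are the closest thing in the reference to the feature that gives the group its name. RefSeq promoter entries on GRCh38.p14, the same assembly as the hg38 of the counts, were matched by symbol for 23 of the 30 genes. In the 250 bases upstream of a start, the p53 half-site (purines, a C, A or T bases, a G, then pyrimidines; searched on both strands) was present for 6 of the 23 genes (26.1%), against 6.8% of all symbols with an entry. Counted by start site, 6 of 35 starts of these genes had it, against 5.57% of all starts. All 6 half-sites lay ahead of a start inside the span of their own gene in the annotation of the counts. For SESN1, on the minus strand, that start was at base 109008988 and the outer 5′ end of the gene at 109094819. Each half-site is written 5′ to 3′ on the strand of its gene, in capitals, with up to 10 bases on either side.
AEN, chr15:88621296-88621325 (+): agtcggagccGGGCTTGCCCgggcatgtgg
FAS, chr10:88991299-88991328 (+): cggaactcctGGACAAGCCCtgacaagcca
FDXR, chr17:74872995-74873015 (-): gggcaggagcGGGCTTGCCCt
PLK2, chr5:58460199-58460228 (-): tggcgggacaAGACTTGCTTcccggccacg
RPS27L, chr15:63157517-63157546 (-): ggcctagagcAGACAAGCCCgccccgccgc
SESN1, chr6:109009018-109009047 (-): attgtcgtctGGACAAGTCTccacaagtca

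The same windows were searched for the C/EBP-type motif TTGCNNAA and for TGTTCT, a half-site of the progesterone receptor, on both strands. TTGCNNAA was found for DDB2 and FAS, 2 of 23 genes (8.7%), against 11% of all symbols. TGTTCT was found for EDA2R, FAS and XPC, 3 of 23 genes (13%), against 14.8%. No printed p53 half-site overlapped a match to either motif. These matches are descriptions of letters in a short window and say nothing of binding.

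The first question was whether the 28 measured genes moved together when hormone was added. They did not move in one direction in any background, and the balance of directions differed between the siRNA and the ICRF libraries. In siControl cells, progestin raised 7 and lowered 15 of the 28. Across all 18351 genes tested there, 58.5% passed the threshold, 29.2% higher and 29.3% lower. Of these p53 targets 78.6% passed, 25% higher and 53.6% lower. In the other lists described below, 78.3% of 23 p53 regulators and 75.7% of 37 further p53 targets passed, so that total was not particular to the 28. Calls are edgeR quasi-likelihood tests with Benjamini-Hochberg adjustment over all genes and a threshold of 0.05. The median log2 fold change of the 28 genes was -0.22, against -0.03 for all genes. In siCEBPA cells the counts were 7 higher and 14 lower, with a median of -0.31 against -0.03, where 58.2% of all genes passed (29.9% higher, 28.4% lower).

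With ICRF the balance was the other way. Progestin raised 14 and lowered 9 of the 28, with a median log2 fold change of 0.12 against -0.01 for all genes. DESeq2 called 14 higher and 7 lower. Of the 18556 genes tested, 61.4% passed, 31.3% higher and 30% lower. The 3 hormone responses share no library. In all of them 5 genes rose: GADD45A, RRM2B, TNFRSF10A, TNFRSF10B and TP53I3, the last turning negative in siControl under 2 other scalings (17.9%, against 14.3% of the 17565 genes tested in all). Another 7 fell in all: BBC3, CCNG2, DDB2, FAS, PHLDA3, PLK2 and PLK3 (25%, against 12.5%). A further 7 had opposite calls in at least one pair of backgrounds: AEN, CCNG1, SESN1, TIGAR, TP53INP1, XPC and ZMAT3 (25%, against 15.1%). For 6 of these 7 the direction was down in both siRNA backgrounds and up with ICRF, and for AEN it was up in both and down with ICRF. BAX, FDXR, RPS27L and TRIAP1 passed in no background as fitted, 4 of 28, against 2921 of the 17565 genes tested in all. Without scaling factors all 4 passed as lower in siControl. The 6 genes with a printed half-site fell into several of these classes: FAS and PLK2 fell in all, AEN and SESN1 had opposite calls, and FDXR and RPS27L passed in none.

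The scale on which all genes are compared bears on these counts. With upper quartile scaling or no scaling factors, the share of siControl hormone calls that were higher moved from 50.0% to 38.2% or 33.9%, and that in siCEBPA from 51.3% to 36.9% or 33.3%. The counts of p53 targets then read 5 higher and 18 lower or 5 and 20 in siControl, and 5 and 17 or 5 and 18 in siCEBPA. Among the genes called in siControl, TP53I3 is the one whose direction depended on this choice, as given below.

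**Figure D1:**
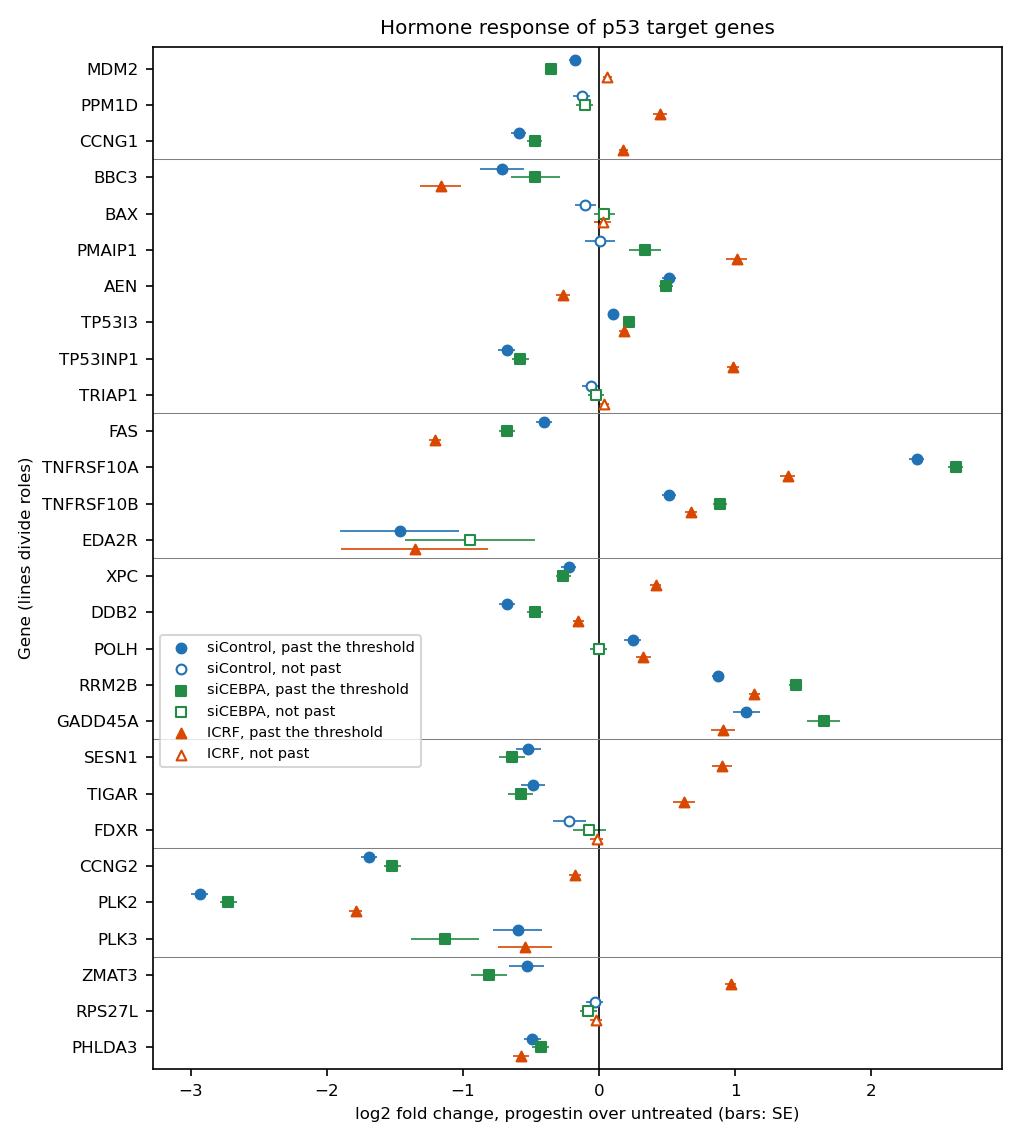
Log2 fold change with progestin (x axis, bars are standard errors) for each of the 28 measured p53 targets (y axis, grouped by role) in siControl, siCEBPA and ICRF libraries, 2 against 2 in each; filled symbols passed the threshold. The siRNA symbols lie close together for most genes, while ICRF triangles lie to the right of 0 for SESN1, TIGAR, TP53INP1 and ZMAT3, where the siRNA symbols lie to the left.

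The second question was whether CEBPA siRNA moved the genes together. Without hormone, 13 of the 28 were lower and 2 higher in siCEBPA than in siControl, with a median of -0.19 against 0.01 for all genes. Of all 18351 genes, 46.6% passed, 22.6% higher and 24.0% lower. With hormone, 11 were lower and 4 higher, with a median of -0.13 against 0.02, where 44.6% of all genes passed, 22.5% higher and 22.1% lower. AEN, BBC3, CCNG2, GADD45A, PLK2, PLK3, TNFRSF10A, TNFRSF10B and TP53I3 were lower in both states, 9 of 28 (32.1%, against 16.7% of all genes). DDB2 and XPC were higher in both (7.14%, against 15.6%), and RRM2B was lower without and higher with hormone (3.57%, against 0.943%). Another 10 of the 28 passed in neither state, against 7702 of the 18351 genes. Without scaling factors, the share of all calls that were higher moved from 48.5% to 65.3% without hormone and from 50.5% to 64.9% with it. The p53 targets then stood at 5 higher and 11 lower without hormone, and at 4 higher and 7 lower with it.

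**Figure D2:**
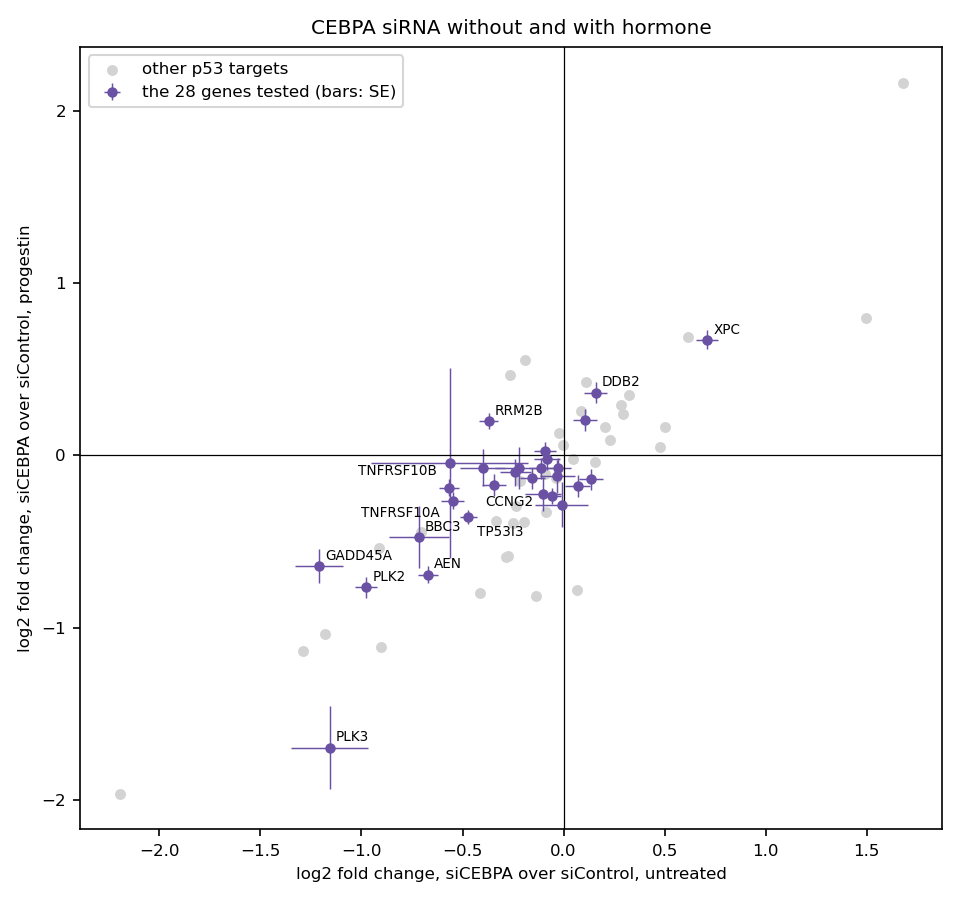
Log2 fold change of siCEBPA over siControl without hormone (x axis) and with progestin (y axis) for the 28 measured p53 targets (purple, bars are standard errors) and for 37 other p53 targets (grey); 2 libraries per group, and names mark genes past the threshold in both states. Most named genes lie at the lower left, XPC and DDB2 lie at the upper right, and RRM2B lies at the upper left.

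The hormone response itself differed between siCEBPA and siControl for 4 of the 28 genes, all in the positive direction: GADD45A, RRM2B, TNFRSF10A and TNFRSF10B. Among all genes, 7.24% differed, 4.19% with a higher and 3.06% with a lower response in siCEBPA. By edgeR, 0 members had a lower response past the threshold. In that direction MDM2, FAS and POLH had an unadjusted p under 0.05 (3 genes), DESeq2 called 1, FAS, and a fit with the replicate number as a block called all 3, by -0.18, -0.27 and -0.25 (edgeR adjusted p = 0.0417, 0.0209 and 0.0369). Between ICRF and siControl the difference passed for 16 of the 28 genes, 13 positive and 3 negative, with a median of 0.19 against 0.02. Here 48.9% of the 19003 genes tested differed, 24.9% positive and 24.0% negative. Without scaling factors the positive share of these calls over all genes went from 50.9% to 65.2%, and the p53 targets stood at 18 positive and 3 negative. These differences and the siControl hormone response share the siControl libraries.

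**Figure D3:**
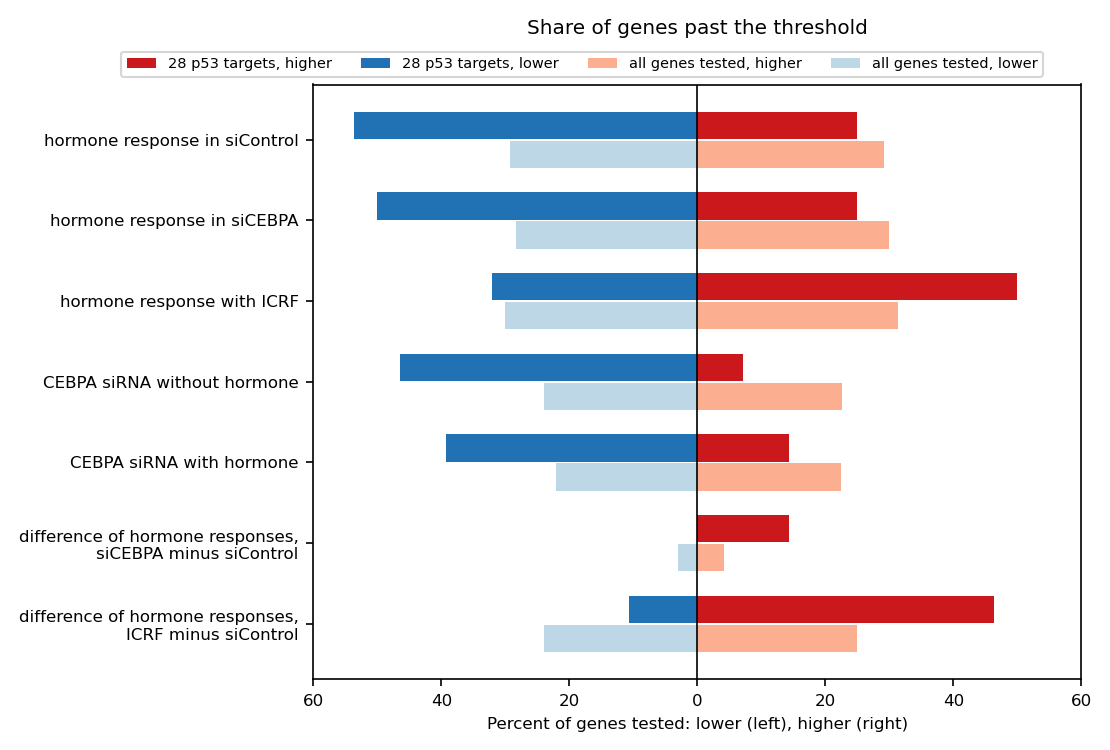
Percent of the 28 measured p53 targets (dark bars) and of all genes tested (pale bars) that passed the threshold, lower to the left and higher to the right of 0 on the x axis, for each of 7 comparisons (y axis). In the siControl hormone response 15 of 28 genes lay to the left, and with ICRF 14 of 28 lay to the right.

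Among the feedback genes, which act on p53 itself, hormone lowered MDM2 and CCNG1 in the siRNA libraries and raised CCNG1 and PPM1D with ICRF. MDM2, the ubiquitin ligase that marks p53 for degradation, was the most abundant of them at 186 to 286 CPM over the 12 libraries. It fell by 0.18 (log2, SE 0.04) with hormone in siControl and by 0.36 (SE 0.05) in siCEBPA, and was at 0.06 (SE 0.03, not past the threshold) with ICRF. Its siControl fall passed at an edgeR adjusted p of 0.00325. That call was lost with siControl progestin replicate 1 left out (-0.11, adjusted p = 0.11), and with siControl untreated replicate 1 left out (-0.13, adjusted p = 0.0536). The difference between the ICRF and siControl responses was 0.24 (SE 0.06, edgeR adjusted p = 0.00143). With hormone present, MDM2 was lower by 0.23 (SE 0.05) in siCEBPA.

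CCNG1 encodes cyclin G1, which recruits a phosphatase to MDM2, and per kilobase of gene it was second among the 30 at 51.8 CPM per kb. Its levels were 184 and 177 CPM in untreated siControl and 121 and 121 CPM with progestin, 172 and 164 CPM in untreated siCEBPA and 129 and 114 CPM with progestin, and 175 and 171 CPM in untreated ICRF and 196 and 200 CPM with progestin. Hormone lowered it in both siRNA backgrounds without overlap, while both ICRF progestin libraries were above every other library. The log2 fold changes were -0.59 (SE 0.06), -0.47 (SE 0.06) and 0.18 (SE 0.04), and the ICRF response exceeded that in siControl by 0.77 (SE 0.07, edgeR adjusted p = 6.18e-09). PPM1D, a phosphatase that turns off p53 and the kinases that activate it, held 24.2 to 29.9 CPM in 10 libraries and 40.1 and 40 CPM with ICRF and progestin. Its rise with ICRF was 0.44 (SE 0.05, edgeR adjusted p = 3.34e-10), and the difference from siControl was 0.58 (SE 0.08). PPM1D was lower in untreated siCEBPA by 0.15 (SE 0.06, adjusted p = 0.0465). That call was lost when siCEBPA untreated replicate 1 or 2, siControl untreated replicate 1 or 2 or siControl progestin replicate 2 was left out (adjusted p from 0.0679 to 0.143).

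Among the 7 genes of apoptosis inside the cell, 2 rose and 2 fell with hormone in siControl. These shares, 28.6% each, were close to those of all genes, 29.2% and 29.3%. Each BCL2-family member had a pattern of its own. PMAIP1 encodes NOXA, a small protein that frees the apoptotic machinery from BCL2-type inhibitors. It stood at 6.05 and 5.49 CPM in untreated siControl, 5.33 and 6.34 CPM with progestin, 4.3 and 4.34 CPM in untreated siCEBPA, 5.44 and 5.54 CPM with progestin, 8.33 and 8.67 CPM in untreated ICRF and 17.3 and 17.4 CPM in ICRF with progestin. The ICRF libraries lay above all siRNA libraries, and those with progestin lay highest, while the siControl groups overlapped. With ICRF its rise was 1.01 (log2, SE 0.07, edgeR adjusted p = 3.33e-16), which exceeded the siControl response of 0.01 (SE 0.11) by 1.004 (SE 0.13). In siCEBPA it rose by 0.34 (SE 0.12, adjusted p = 0.0198). That call was lost when any 1 of the 4 siCEBPA libraries was left out (adjusted p from 0.051 to 0.0639) and without scaling factors (0.17, adjusted p = 0.214).

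BBC3 encodes PUMA, which like NOXA carries only the short BH3 death motif. It was scarce, at 2.89 and 3.5 CPM in untreated siControl, 2.12 and 1.84 CPM with progestin, 2.11 and 1.79 CPM in untreated siCEBPA, 1.43 and 1.41 CPM with progestin, 2.94 and 3.34 CPM in untreated ICRF and 1.42 and 1.42 CPM with progestin. Every progestin library lay below the untreated libraries of its background. The log2 fold changes with hormone were -0.71 (SE 0.16) in siControl, -0.47 (SE 0.18) in siCEBPA and -1.16 (SE 0.15) with ICRF, and CEBPA siRNA without hormone gave -0.72 (SE 0.15). The siCEBPA hormone call was lost without siCEBPA progestin replicate 1 or 2 or siCEBPA untreated replicate 1 (adjusted p from 0.0867 to 0.235). The siCEBPA call in hormone, -0.47 (SE 0.18), was lost without any 1 of the 4 progestin libraries (0.0562 to 0.219). BAX, which forms pores in the mitochondrial membrane, ranged only from 17.4 to 22.2 CPM and passed in no hormone response as fitted. In siControl BAX passed at -0.213 with upper quartile scaling and at -0.256 without scaling factors (edgeR adjusted p = 0.0268 and 0.0099). It was lower by 0.24 (SE 0.08) in untreated siCEBPA, a call lost without siCEBPA untreated replicate 1 or 2 or siControl untreated replicate 2 (adjusted p from 0.0607 to 0.0952).

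AEN, a nuclease that aids DNA breakdown in apoptosis, had the reverse of the commonest opposite pattern. It rose with hormone by 0.52 (log2, SE 0.05) in siControl, from 68.6 and 68.7 CPM to 100 and 97.9 CPM, and by 0.49 (SE 0.05) in siCEBPA, from 41.5 and 44.2 CPM to 58.3 and 63 CPM. With ICRF it fell by 0.26 (SE 0.05), from 42.2 and 43.1 CPM to 37 and 34.9 CPM. CEBPA siRNA lowered it by 0.67 (SE 0.05) without hormone and by 0.69 (SE 0.05) with it, and the difference between the siRNA hormone responses was -0.02 (SE 0.07, adjusted p = 0.925). The ICRF response lay below that in siControl by 0.77 (SE 0.07, edgeR adjusted p = 8.82e-09). The AEN half-site shown above has the same 10 capital letters as that of FDXR, which passed in no hormone response as fitted.

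TP53INP1, a stress protein linked to apoptosis and autophagy, showed the greatest positive difference between ICRF and siControl among the 28. Its levels were 60.7 and 60.1 CPM in untreated siControl, 39 and 37.1 CPM with progestin, 65.4 and 63.5 CPM in untreated siCEBPA, 46.1 and 40.8 CPM with progestin, 56.4 and 54.7 CPM in untreated ICRF and 107 and 116 CPM with progestin. Hormone thus took the siRNA libraries to the lowest values and the ICRF libraries to the highest. The log2 fold changes were -0.68 (SE 0.06), -0.58 (SE 0.06) and 0.98 (SE 0.04), and the ICRF response exceeded that in siControl by 1.67 (SE 0.08, edgeR adjusted p = 4.8e-13). With hormone it was higher by 0.21 (SE 0.06) in siCEBPA, a call lost without siCEBPA progestin replicate 1 (0.11, adjusted p = 0.216) or siControl progestin replicate 2 (0.17, adjusted p = 0.123).

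TP53I3 encodes a quinone oxidoreductase and was the most abundant of the 30 per kilobase, at 80.2 CPM per kb. It stood at 204 and 202 CPM in untreated siControl, 222 and 218 CPM with progestin, 150 and 141 CPM in untreated siCEBPA, 168 and 172 CPM with progestin, 173 and 176 CPM in untreated ICRF and 203 and 198 CPM with progestin. Progestin libraries were the higher ones in each background, and all siCEBPA libraries lay below all siControl libraries. CEBPA siRNA changed it by -0.47 (log2, SE 0.04, edgeR adjusted p = 1.76e-07) without hormone and by -0.36 (SE 0.04) with it. The hormone response was small: 0.10 (SE 0.04) in siControl, 0.22 (SE 0.04) in siCEBPA and 0.18 (SE 0.04) with ICRF. In siControl the call was lost without any 1 of the 4 siControl libraries (adjusted p from 0.0687 to 0.132), and the value turned to -0.05 without scaling factors and to -0.006 with upper quartile scaling. In siCEBPA the call was lost with these 2 scalings (adjusted p = 0.266 and 0.0628). TRIAP1, a small mitochondrial protein that restrains apoptosis, was the third of the 30 per kilobase at 46.4 CPM per kb. It held 68.4 and 66.4 CPM in untreated siControl, 67.5 and 62.7 CPM with progestin, 63.4 and 60.3 CPM in untreated siCEBPA, 64.8 and 57.6 CPM with progestin, 73.9 and 69.2 CPM in untreated ICRF and 73.3 and 74.7 CPM with progestin. Its groups overlapped for each hormone response, and it passed in none of the comparisons as fitted. Without scaling factors the hormone response of TRIAP1 passed at -0.22 in siControl and -0.19 in siCEBPA (edgeR adjusted p = 0.00464 and 0.0117).

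Among the death receptors, hormone raised the TRAIL receptors TNFRSF10A and TNFRSF10B and lowered FAS in every background. TNFRSF10A, the TRAIL receptor also called DR4, had the greatest rise of the 28 in the siRNA libraries. It stood at 17.9 and 17.5 CPM in untreated siControl and 91.3 and 88.6 CPM with progestin, 12 and 12 CPM in untreated siCEBPA and 73.1 and 75.4 CPM with progestin, and 18.2 and 18.4 CPM in untreated ICRF and 48.8 and 47.9 CPM with progestin. The untreated ICRF and siControl libraries lay close together, and the ICRF progestin libraries lay below the other progestin libraries. Its log2 fold changes were 2.34 (SE 0.05), 2.62 (SE 0.06) and 1.39 (SE 0.05). The ICRF response differed from that in siControl by -0.94 (SE 0.07, edgeR adjusted p = 3.33e-10).

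TNFRSF10B, the TRAIL receptor DR5, rose by 0.51 (log2, SE 0.05) in siControl, from 113 and 126 CPM to 173 and 173 CPM. In siCEBPA it rose by 0.89 (SE 0.05), from 78.7 and 82.4 CPM to 150 and 151 CPM, and with ICRF by 0.68 (SE 0.04), from 62.7 and 68.1 CPM to 108 and 104 CPM. CEBPA siRNA lowered it by 0.57 (SE 0.05) without hormone and by 0.19 (SE 0.05) with it, so its hormone response was greater in siCEBPA by 0.38 (SE 0.07, edgeR adjusted p = 0.00308). Without scaling factors the siCEBPA value in hormone missed the threshold (-0.10, adjusted p = 0.099). TNFRSF10A was also lower in siCEBPA, by 0.55 (SE 0.06) without and by 0.26 (SE 0.05) with hormone, and its response was greater by 0.29 (SE 0.08, adjusted p = 0.0285). That difference was lost when any 1 of the siRNA libraries but siCEBPA progestin replicate 1 was left out (adjusted p from 0.0537 to 0.139).

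FAS, the receptor of the death ligand FASLG, stood at 47.7 and 43.6 CPM in untreated siControl, 33.9 and 35.6 CPM with progestin, 50.7 and 48.7 CPM in untreated siCEBPA, 31 and 31.5 CPM with progestin, 80.4 and 84.5 CPM in untreated ICRF and 36.6 and 35.6 CPM with progestin. The untreated ICRF libraries lay far above all others, and the progestin libraries of the 3 backgrounds lay within a narrow band. Its log2 fold changes with hormone were -0.40 (SE 0.06), -0.68 (SE 0.06) and -1.21 (SE 0.04), and the ICRF response lay below that in siControl by 0.80 (SE 0.08, edgeR adjusted p = 1.6e-08). Other gene models lie on the same strand over FAS, MDM2, PHLDA3 and SESN1, so the counts of these genes are less certain. EDA2R, a receptor of the ectodysplasin family, was near the floor of detection. It held 0.402 and 0.392 CPM in untreated siControl, 0.113 and 0.176 CPM with progestin, 0.307 and 0.222 CPM in untreated siCEBPA, 0.0873 and 0.192 CPM with progestin, 0.212 and 0.222 CPM in untreated ICRF and 0.0741 and 0.0963 CPM with progestin, which are 6 to 59 read pairs a library. The progestin libraries were the lower ones in each background, with log2 fold changes of -1.47 (SE 0.44), -0.95 (SE 0.48, not past the threshold) and -1.35 (SE 0.54). The siControl call was lost without siControl progestin replicate 1 (adjusted p = 0.103) and by DESeq2 (adjusted p = 0.0539). The ICRF call was lost without any 1 of the 4 ICRF libraries (adjusted p from 0.0866 to 0.179).

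**Figure D4:**
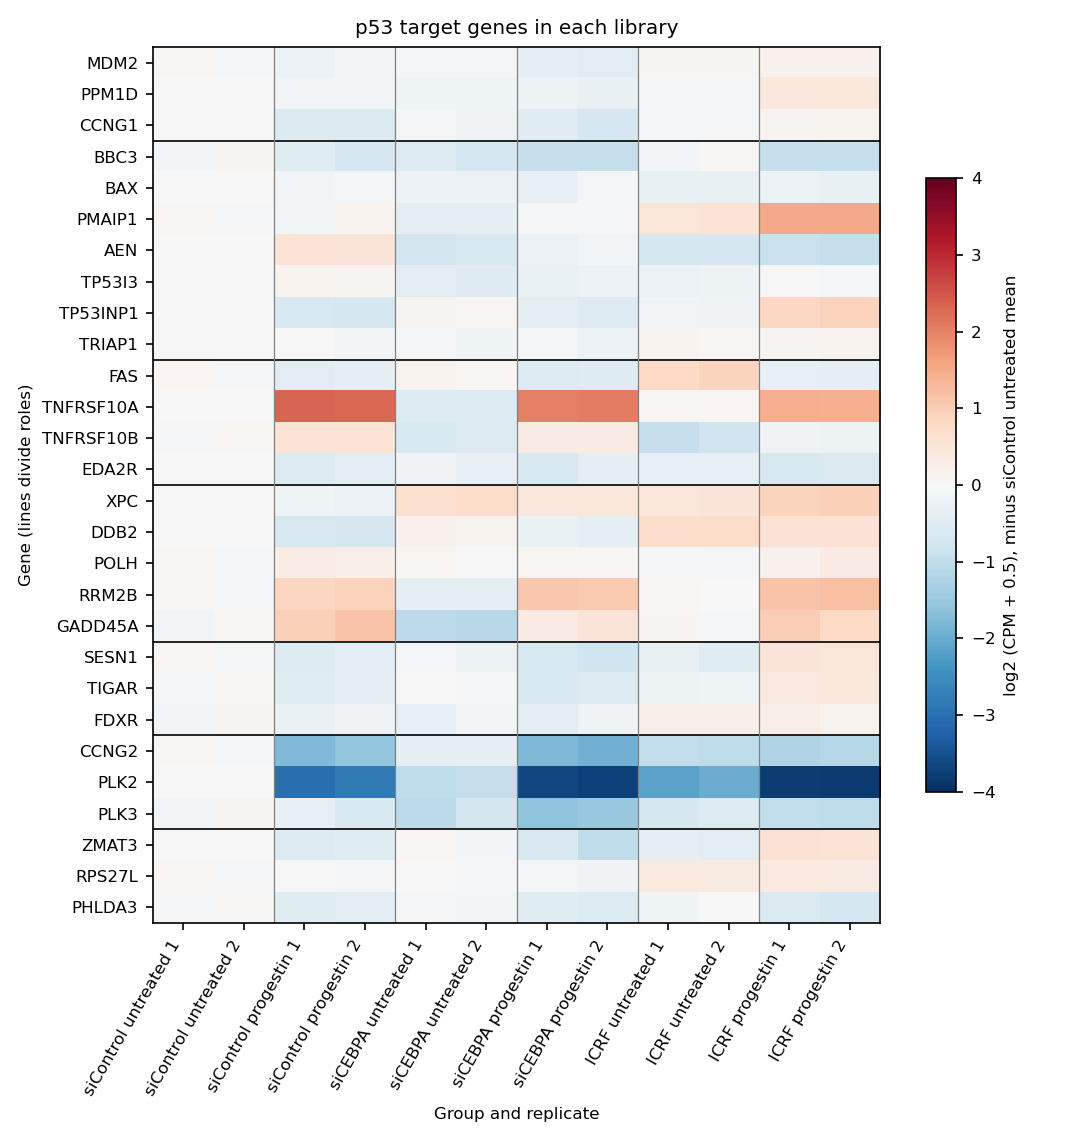
Colour gives the log2 of CPM plus 0.5 for each of the 28 measured p53 targets (y axis, grouped by role) in each of the 12 libraries (x axis), less the mean of the untreated siControl libraries; red is higher and blue lower. TNFRSF10A is the reddest row in the progestin siRNA columns, PLK2 the bluest in the progestin columns, and PMAIP1 is red in the ICRF progestin columns.

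Among genes of DNA repair and nucleotide supply, RRM2B and GADD45A rose with hormone in every background, and XPC and DDB2 fell in the siRNA libraries. RRM2B, a subunit of ribonucleotide reductase that supplies nucleotides for repair, stood at 79.1 and 75.5 CPM in untreated siControl and 140 and 146 CPM with progestin, 60.2 and 58.4 CPM in untreated siCEBPA and 165 and 160 CPM with progestin, and 81.1 and 75.8 CPM in untreated ICRF and 171 and 179 CPM with progestin. No progestin library overlapped an untreated one. The siCEBPA libraries were lowest without hormone yet lay above siControl with it. The log2 fold changes with hormone were 0.88 (SE 0.04), 1.44 (SE 0.05) and 1.14 (SE 0.04). The siCEBPA response exceeded that in siControl by 0.57 (SE 0.06, edgeR adjusted p = 5.5e-05), and the ICRF response did so by 0.27 (SE 0.06, edgeR adjusted p = 0.00111). CEBPA siRNA gave -0.37 (SE 0.05) without hormone and 0.20 (SE 0.04) with it. The latter was lost with siControl progestin replicate 1 left out (0.15, adjusted p = 0.0607).

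GADD45A, a stress sensor that binds cell cycle and repair proteins, stood at 5.7 and 6.58 CPM in untreated siControl and 12.3 and 14.1 CPM with progestin, 2.71 and 2.6 CPM in untreated siCEBPA and 7.86 and 8.92 CPM with progestin, and 6.61 and 5.85 CPM in untreated ICRF and 12.7 and 11 CPM with progestin. The ICRF groups lay close to the siControl groups, while siCEBPA lay below siControl in both states. Hormone raised it by 1.08 (log2, SE 0.10), 1.65 (SE 0.12) and 0.91 (SE 0.09), and CEBPA siRNA changed it by -1.21 (SE 0.12, edgeR adjusted p = 6.79e-07) without hormone and by -0.64 (SE 0.10) with it. Its hormone response was greater in siCEBPA by 0.57 (SE 0.16, adjusted p = 0.0417). That difference was lost when siCEBPA progestin replicate 2, siCEBPA untreated replicate 1 or 2, siControl progestin replicate 1 or 2 or siControl untreated replicate 2 was left out (adjusted p from 0.0501 to 0.208). Between ICRF and siControl the difference was -0.17 (SE 0.15, adjusted p = 0.376).

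XPC and DDB2 recognise damaged bases at the start of nucleotide excision repair, and they were the only 2 of the 28 that were higher in siCEBPA in both hormone states. XPC stood at 39.4 and 41 CPM in untreated siControl against 63.5 and 67.2 CPM in untreated siCEBPA, and at 35.8 and 33.8 CPM against 54.8 and 54.8 CPM with progestin. These are log2 differences of 0.71 (SE 0.05, edgeR adjusted p = 3.32e-08) and 0.67 (SE 0.06). Hormone lowered XPC by 0.22 (SE 0.06) in siControl and by 0.26 (SE 0.05) in siCEBPA. With ICRF it raised XPC by 0.42 (SE 0.04), from 56.2 and 57.3 CPM to 75.7 and 77.5 CPM, 0.64 (SE 0.07) above the siControl response. DDB2 fell with hormone by 0.68 (SE 0.06) in siControl, by 0.47 (SE 0.06) in siCEBPA and by 0.15 (SE 0.04) with ICRF. The last of these missed the threshold without ICRF untreated replicate 2 (-0.14, adjusted p = 0.0655). DDB2 was higher in siCEBPA by 0.36 (SE 0.06) with hormone and by 0.16 (SE 0.06) without. The value without hormone was lost when any 1 of the 4 untreated siRNA libraries or either siControl progestin library was left out (adjusted p from 0.0548 to 0.199). POLH, a polymerase that copies past lesions, rose with hormone by 0.25 (SE 0.06) in siControl and by 0.32 (SE 0.06) with ICRF. It was at 0.00 (SE 0.06) in siCEBPA, where it was lower than siControl by 0.18 (SE 0.06) in hormone. The siControl call was lost without siControl untreated replicate 2 (adjusted p = 0.0517) and without scaling factors (0.09, adjusted p = 0.218). The POLH call for siCEBPA in hormone was lost without any 1 of the 4 progestin libraries (adjusted p from 0.0608 to 0.147).

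Genes of metabolism and redox control had matching patterns in SESN1 and TIGAR. SESN1, a sestrin that restrains growth signalling under stress, stood at 13.9 and 12.3 CPM in untreated siControl, 8.91 and 9.48 CPM with progestin, 12.7 and 11.4 CPM in untreated siCEBPA, 8.16 and 7.41 CPM with progestin, 10.6 and 9.24 CPM in untreated ICRF and 18.9 and 18.5 CPM with progestin. TIGAR, a phosphatase that slows glycolysis, stood at 9.52 and 10.4 CPM, 6.95 and 7.44 CPM, 9.77 and 9.64 CPM, 6.39 and 6.71 CPM, 8.51 and 8.71 CPM and 13.2 and 13.6 CPM in the same order of groups. For both genes the ICRF progestin libraries were the highest of the 12 and the siCEBPA progestin libraries the lowest. SESN1 changed with hormone by -0.52 (log2, SE 0.09), -0.64 (SE 0.10) and 0.90 (SE 0.07), and TIGAR by -0.49 (SE 0.09), -0.58 (SE 0.09) and 0.62 (SE 0.08). The ICRF response exceeded that in siControl by 1.42 (SE 0.12, edgeR adjusted p = 5.49e-09) for SESN1 and by 1.11 (SE 0.11, edgeR adjusted p = 5.37e-08) for TIGAR. Neither passed the threshold for CEBPA siRNA as fitted. With a replicate block SESN1 was lower in siCEBPA with hormone (-0.224, edgeR adjusted p = 0.0382). FDXR, the reductase that feeds electrons to mitochondrial ferredoxin, held 29.7 to 49.2 CPM and passed in none of the comparisons as fitted. Calls on FDXR depended on the settings. Its hormone response in siControl was -0.22 (SE 0.12, edgeR adjusted p = 0.149), and it passed at -0.22 without the filter on low counts (adjusted p = 0.00431), at -0.37 without scaling factors (adjusted p = 0.0311) and at -0.21 with a replicate block (adjusted p = 0.00138). For CEBPA siRNA without hormone FDXR was at -0.22 (SE 0.12, edgeR adjusted p = 0.168), and it passed at -0.25 without the filter (adjusted p = 0.00107) and at -0.21 with the block (adjusted p = 0.00161). Without the filter FDXR also passed for ICRF minus siControl, at 0.24 for the hormone responses and 0.19 untreated (edgeR adjusted p = 0.0257 and 0.00517).

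The cell cycle and kinase genes fell with hormone in all 3 backgrounds and were lower with CEBPA siRNA in both states. PLK2, a polo-like kinase that acts in stress and centriole duplication, had the widest range of the 28. It stood at 497 and 491 CPM in untreated siControl and 60.4 and 69.8 CPM with progestin, 245 and 253 CPM in untreated siCEBPA and 39.1 and 36.7 CPM with progestin, and 111 and 125 CPM in untreated ICRF and 35 and 34 CPM with progestin. The untreated siControl libraries were far above the rest, and no progestin library overlapped an untreated one. Hormone changed it by -2.94 (log2, SE 0.06, edgeR adjusted p = 8.93e-15) in siControl, by -2.72 (SE 0.06) in siCEBPA and by -1.79 (SE 0.05) with ICRF. The ICRF fall was smaller by 1.15 (SE 0.09, edgeR adjusted p = 3.29e-08), while the untreated ICRF level differed from untreated siControl by -2.06 (SE 0.06). CEBPA siRNA gave -0.98 (SE 0.06) without hormone and -0.76 (SE 0.06) with it. The PLK2 half-site is printed above.

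CCNG2, an unconventional cyclin associated with arrest, stood at 122 and 116 CPM in untreated siControl, 34.9 and 39.3 CPM with progestin, 92.7 and 93.3 CPM in untreated siCEBPA, 33.9 and 31.2 CPM with progestin, 59.4 and 58 CPM in untreated ICRF and 51.2 and 53.9 CPM with progestin. In ICRF the untreated and progestin values lay close together between the extremes of the siRNA libraries. The log2 fold changes with hormone were -1.69 (SE 0.06), -1.52 (SE 0.06) and -0.18 (SE 0.04), and the ICRF response was less negative by 1.52 (SE 0.08, edgeR adjusted p = 1.53e-12). CEBPA siRNA gave -0.34 (SE 0.06) without hormone and -0.17 (SE 0.06) with it. With hormone the call was lost, and the value fell to -0.11 or -0.09, without siCEBPA progestin replicate 2 or siControl progestin replicate 2 (adjusted p = 0.241 and 0.384), and it was -0.09 without scaling factors (adjusted p = 0.284).

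PLK3, a relative of PLK2, was scarce at 2.28 and 2.76 CPM in untreated siControl, 1.9 and 1.49 CPM with progestin, 0.965 and 1.31 CPM in untreated siCEBPA, 0.48 and 0.559 CPM with progestin, 1.36 and 1.55 CPM in untreated ICRF and 1.02 and 0.992 CPM with progestin. The siCEBPA progestin libraries were the lowest, with 33 and 35 read pairs, and the groups of each hormone comparison did not overlap. Its log2 fold changes with hormone were -0.60 (SE 0.18), -1.14 (SE 0.25) and -0.54 (SE 0.20), and with CEBPA siRNA -1.16 (SE 0.19) without and -1.69 (SE 0.24, edgeR adjusted p = 2.91e-05) with hormone. The siControl hormone call was lost without siControl progestin replicate 2 or siControl untreated replicate 2 (adjusted p = 0.127 and 0.133) and by DESeq2 (0.0557). The ICRF hormone call was lost without ICRF progestin replicate 2 or ICRF untreated replicate 2 (adjusted p = 0.0553 and 0.14) and by DESeq2 (0.075).

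Of the remaining genes, ZMAT3, an RNA-binding zinc finger protein, shared the pattern of SESN1 and TIGAR. It stood at 94.2 and 91 CPM in untreated siControl, 63.6 and 65.6 CPM with progestin, 96.8 and 85.8 CPM in untreated siCEBPA, 59.5 and 45.3 CPM with progestin, 70.3 and 67.3 CPM in untreated ICRF and 137 and 135 CPM with progestin. The ICRF progestin libraries were the highest, and siCEBPA progestin replicate 2 was the lowest and stood apart from its partner. Hormone changed ZMAT3 by -0.53 (log2, SE 0.13), -0.81 (SE 0.13) and 0.97 (SE 0.04), and the ICRF response exceeded that in siControl by 1.503 (SE 0.15, edgeR adjusted p = 4.06e-05). The siControl call was lost without siControl progestin replicate 1 or siControl untreated replicate 1 or 2 (adjusted p = 0.0592, 0.0902 and 0.0842). Without siCEBPA progestin replicate 1, ZMAT3 was lower in siCEBPA with hormone (-0.51, adjusted p = 1.75e-05, against -0.28, adjusted p = 0.125) and its hormone response was lower there than in siControl (-0.49, adjusted p = 0.00181).

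PHLDA3, which blocks the kinase AKT at the membrane, fell with hormone by 0.49 (log2, SE 0.06) in siControl, 0.43 (SE 0.06) in siCEBPA and 0.58 (SE 0.06) with ICRF. Its 12 values lay between 21.3 and 35.6 CPM, and the progestin libraries of each background lay below the untreated ones. It passed in no other comparison. RPS27L, a ribosomal protein resembling RPS27, held 38.8 to 56.6 CPM and passed in no hormone or siRNA comparison as fitted. With upper quartile scaling its hormone response passed in siCEBPA at -0.21 (edgeR adjusted p = 0.00811). Without scaling factors it passed at -0.245 in siCEBPA and -0.186 in siControl (edgeR adjusted p = 0.0031 and 0.0168). Reads shared with RPS27 could have been left out of its counts, so its level is less certain.

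**Figure D5:**
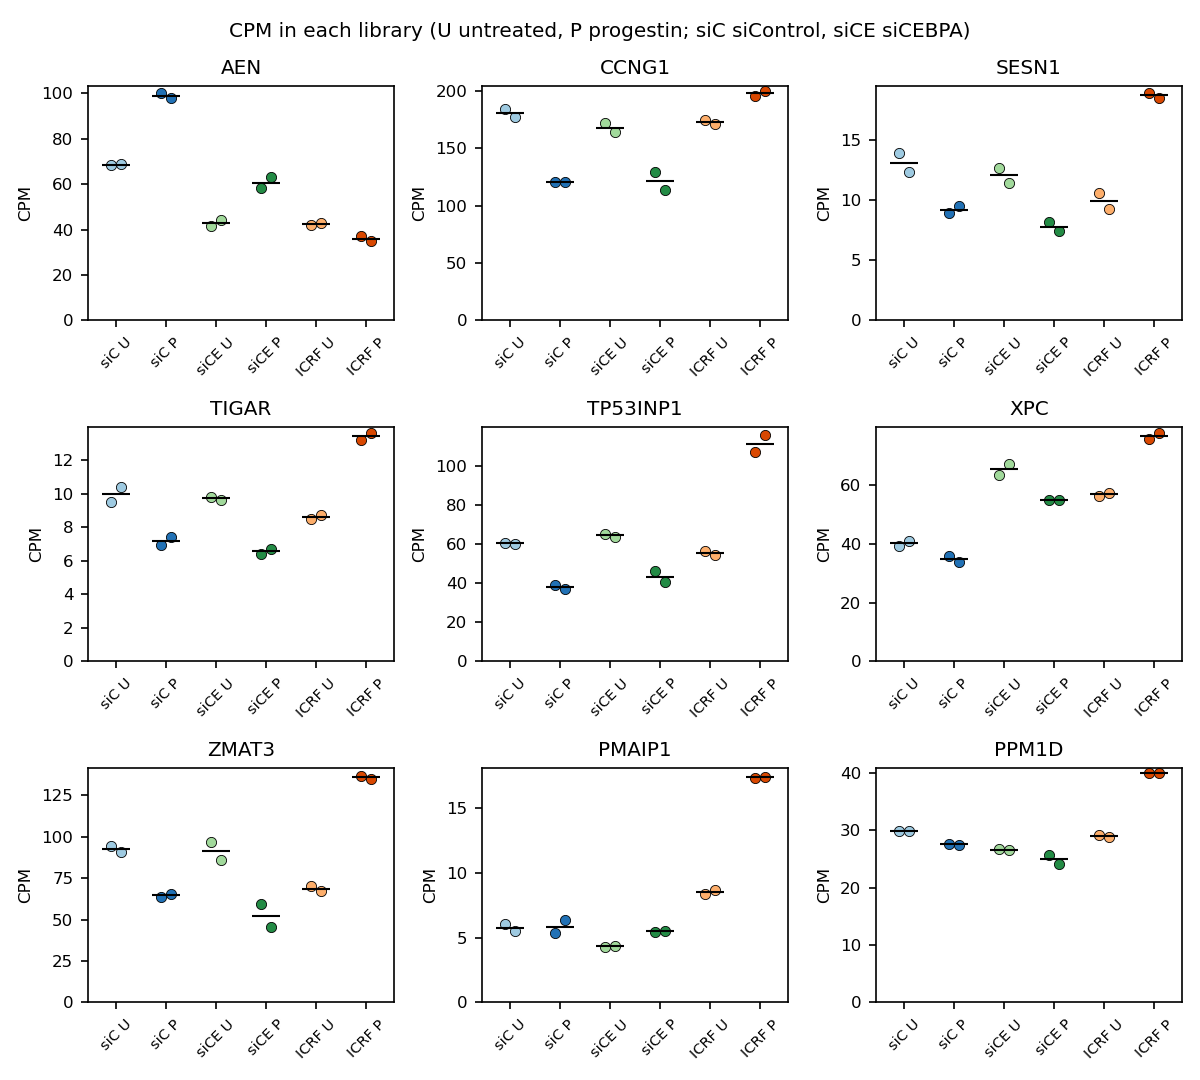
CPM (y axis, from 0) in each of the 12 libraries (points, with the group mean as a line) for the 7 genes with opposite hormone calls, and for PMAIP1 and PPM1D; U is untreated, P progestin, siC siControl and siCE siCEBPA, 2 libraries per group. In all panels but AEN the ICRF progestin libraries are the highest of the 12, and in the AEN panel they are the lowest.

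Untreated ICRF and untreated siControl libraries were compared only as a description of the starting levels, since many features of the 2 kinds of library differ. Of the 28 genes, 6 were higher and 10 lower with ICRF, where 64.6% of all genes passed, 32.3% in each direction. The greatest of these differences were -2.06 for PLK2 and -1.02 (SE 0.05) for CCNG2. FAS was higher by 0.86 (SE 0.05), DDB2 by 0.73 (SE 0.05), PMAIP1 by 0.57 (SE 0.09), XPC by 0.50 (SE 0.05) and RPS27L by 0.39 (SE 0.05). TNFRSF10B was lower by 0.88 (SE 0.05), PLK3 by 0.81 (SE 0.17), AEN by 0.69 (SE 0.05), ZMAT3 by 0.43 (SE 0.11), SESN1 by 0.40 (SE 0.09), BAX by 0.31 (SE 0.07), TP53I3 by 0.22 (SE 0.04) and TIGAR by 0.21 (SE 0.08). For MDM2, which was higher by 0.10 (SE 0.04, edgeR adjusted p = 0.0418), the call was lost under most of the alternatives tried (adjusted p from 0.0505 to 0.345), and the value was 0.06 without siControl untreated replicate 2. The TIGAR call was lost without ICRF untreated replicate 1 or 2 or siControl untreated replicate 2 (-0.14, adjusted p = 0.24, without the last), and the ZMAT3 call without siControl untreated replicate 1 (adjusted p = 0.0541).

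Among 23 genes of the p53 family and its regulators, hormone raised 8 and lowered 10 in siControl, raised 8 and lowered 11 in siCEBPA, and raised 3 and lowered 14 with ICRF. As shares of the list these were 34.8% higher and 43.5% lower in siControl, against 29.2% and 29.3% of all genes, and 34.8% and 47.8% in siCEBPA, against 29.9% and 28.4%. With ICRF they were 13% and 60.9%, against 31.3% and 30%. TP53BP2, a binding partner that steers p53 toward apoptosis, rose by 1.06 (SE 0.04) in siControl and 1.06 (SE 0.04) in siCEBPA. The checkpoint kinase CHEK2 changed by -1.05 (SE 0.06) and -0.99 (SE 0.07) in the same backgrounds. With ICRF, PPP1R13L, an inhibitor of p53, changed by -1.20 (SE 0.05), and the deacetylase SIRT1 rose by 0.90 (SE 0.04). CEBPA siRNA raised 6 and lowered 7 of the 23 without hormone, and raised 7 and lowered 6 with it. The shares were 26.1% and 30.4% without hormone, against 22.6% and 24.0% of all genes, and 30.4% and 26.1% with it, against 22.5% and 22.1%. By edgeR, 0 of the 23 passed for the difference between the siCEBPA and siControl hormone responses, where 7.24% of all genes passed. There 3 of the 23 had an unadjusted p under 0.05, and DESeq2 also called 0. For the difference between ICRF and siControl, 5 of the 23 were positive (21.7%) and 12 negative (52.2%), against 24.9% and 24.0% of all genes.

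A further list of 40 p53 targets had more rises than falls with hormone in each background. Of the 37 tested, hormone raised 17 and lowered 11 in siControl and raised 18 and lowered 10 in siCEBPA, and of the 36 tested with ICRF it raised 16 and lowered 9. The higher shares were 45.9%, 48.6% and 44.4%, against 29.2%, 29.9% and 31.3% of all genes, and the lower shares were 29.7%, 27% and 25%, against 29.3%, 28.4% and 30%. The medians were 0.10, 0.14 and 0.08 on the log2 scale. ACER2, a ceramidase of the Golgi, rose by 3.49 (SE 0.07) in siControl, from 14.1 and 12.5 CPM to 150 and 149 CPM, by 3.35 (SE 0.07) in siCEBPA and by 2.95 (SE 0.07) with ICRF. SUSD6 rose by 1.49 (SE 0.06), 1.56 (SE 0.06) and 1.53 (SE 0.05) in the same order. In all 3 backgrounds 11 of 36 rose (30.6%), 5 fell (13.9%) and 4 had opposite calls (11.1%). Of the 17565 genes tested in all 3, 14.3% rose, 12.5% fell and 15.1% had opposite calls. CDKN1A, the p21 inhibitor of cell cycle kinases and the best known p53 target, rose with hormone by 0.44 (SE 0.04) in siControl and by 0.70 (SE 0.04) in siCEBPA. It was at 0.05 (SE 0.04, edgeR adjusted p = 0.239) with ICRF, where it held 107 and 106 CPM untreated and 115 and 108 CPM with progestin. Without ICRF progestin replicate 2, the ICRF response of CDKN1A was 0.103, so its size depended on which library was used. The untreated siControl libraries held 209 and 223 CPM of CDKN1A. The ICRF response of CDKN1A lay below that in siControl by 0.38 (SE 0.06). Of the 37 genes tested on its list, 13 had a negative difference, CDKN1A among them, and 13 a positive one. These shares were 35.1% each, against 24.0% of all genes negative and 24.9% positive.

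CEBPA siRNA raised 9 and lowered 14 of these 37 genes without hormone, and raised 8 and lowered 16 with it. The higher shares, 24.3% and 21.6%, were close to those of all genes, 22.6% and 22.5%, and the lower shares were 37.8% and 43.2%, against 24.0% and 22.1%. CDKN1A was lower by 0.70 (log2, SE 0.04) and 0.44 (SE 0.04). ISCU, a scaffold for iron-sulfur clusters, changed by -1.29 (SE 0.06) and -1.14 (SE 0.06). PERP, a junction protein linked to apoptosis, went the other way, with 36.1 and 35 CPM in untreated siControl and 116 and 109 CPM in untreated siCEBPA, a rise of 1.68 (SE 0.06). In hormone PERP was higher by 2.16 (SE 0.06). For the difference between the siCEBPA and siControl hormone responses, 5 of the 37 passed in each direction (13.5%), against 4.19% of all genes higher and 3.06% lower. KITLG, the ligand of the receptor KIT, had a response higher by 0.74 (SE 0.11) and the receptor kinase EPHA2 one lower by 0.85 (SE 0.13). Between ICRF and siControl, 13 of the 37 passed in each direction (35.1%), against 24.9% of all genes positive and 24.0% negative. Of the 28 genes, 13 were positive and 3 negative.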

How the data were processed

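Each library has 1 deposited file of raw read-pair counts per gene. Per the file headers, the authors made these counts with featureCounts 1.5.1 in paired, reverse-strand mode on GENCODE 24 and hg38 from STAR alignments, with no option for multi-mapped reads. Trimmomatic and STAR appear in the submitters' processing notes without versions. The ICRF and siRNA files came from different users' directories, per the file headers. Gene lengths are the deposited exon lengths in bases, per the file headers, and were used only for CPM per kb. Symbols were matched for 56558 of 60554 genes, with 99.85% of counts. Libraries were grouped by their titles.

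Tests used edgeR 4.0.16 in R 4.3.3: filterByExpr, TMM scaling and the robust quasi-likelihood test, with Benjamini-Hochberg adjustment over all genes and a threshold of 0.05. The 8 siRNA libraries, the 4 ICRF libraries, and all 12 (for differences between the 2 kinds) were fitted separately, with 4, 2 and 6 residual degrees of freedom. Standard errors are the absolute log2 fold change over the square root of F. CPM values use TMM factors over all 12 libraries. Code was tested on simulated data. DESeq2 1.42.0, other scalings, no filter, a fit on all 12 libraries, a replicate block and leaving out each library were alternatives. Replicates correlated at 0.9983 to 0.999 and differed by more than counting noise (mean chi-square per gene from 4.2 to 13.8).

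Values in every library are given for genes past the threshold with an absolute log2 fold change of at least 1 in any comparison other than untreated ICRF against untreated siControl, and for the 3 highest in CPM per kb; from the other lists, genes among the 3 smallest p-values of a comparison could be named, besides CDKN1A and CEBPA. From the list of p53 regulators, 1 gene is not reported here. Other genes' library values were added beside their results. The genes and lists were chosen with earlier results of these data known. The 18 ChIP samples were not analysed here.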

Additional observations from a re-analysis of the deposited data

Results flagged for a closer look

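Each value here is the difference between 2 hormone responses on the log2 scale, flagged because the difference itself passed edgeR's quasi-likelihood test. Between siCEBPA and siControl it was 0.569 for GADD45A, 0.569 for RRM2B, 0.378 for TNFRSF10B and 0.287 for TNFRSF10A. As given above, the GADD45A and TNFRSF10A calls were lost when most single libraries were left out. GADD45A also missed the threshold with upper quartile scaling (0.549, edgeR adjusted p = 0.0507). CEBPA itself had 0.395 and CDKN1A 0.261; both calls were lost without siControl progestin replicate 1 (adjusted p = 0.0992 and 0.0807) and without some other libraries.

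Between ICRF and siControl, the positive differences were 1.668 for TP53INP1, 1.521 for CCNG2, 1.503 for ZMAT3, 1.424 for SESN1, 1.151 for PLK2, 1.114 for TIGAR and 1.004 for PMAIP1. Smaller positive ones were 0.773 for CCNG1, 0.643 for XPC, 0.577 for PPM1D, 0.527 for DDB2, 0.269 for RRM2B and 0.24 for MDM2. The negative differences were -0.945 for TNFRSF10A, -0.799 for FAS, -0.774 for AEN, -0.792 for CEBPA and -0.384 for CDKN1A. For PLK2 and CCNG2 both responses were falls, and the positive sign marks a smaller fall with ICRF. The hormone-induced gene TSC22D3 rose by 4.02 in siControl and by 2.03 with ICRF, so responses of other hormone genes also differed in size between the 2 kinds of library, and its part in the results above was not tested.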

How the results depend on the processing

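Over the single genes, 3468 values kept their side of the threshold under an alternative, with the same direction where they passed. Direction was not compared for values that passed in neither fit. Another 120 lost the call, 69 gained one, and 2 that had passed turned sign. The called values that turned were those of TP53I3 with hormone in siControl, at -0.05 without scaling factors and -0.006 with upper quartile scaling. Among counts for CEBPA siRNA with hormone, 7 rather than 11 genes were lower without scaling factors. For CEBPA siRNA without hormone, the 2 higher genes became 1 without the filter, 5 without scaling factors and 4 with upper quartile scaling, and 1 to 2 with a library left out. Genes higher in both hormone states went from 2 to 1 without the filter and were 1 to 2 with a library left out, and genes with opposite calls were 0 to 1 (0 without siControl progestin replicate 1). For the difference between the siCEBPA and siControl hormone responses, leaving out a library gave 2 to 4 genes higher and 0 to 1 lower. In that comparison 1 gene was lower by DESeq2, in the fit on all 12 libraries and with upper quartile scaling. Over all genes, the 1329 calls became 692 without siControl progestin replicate 1 and 779 without replicate 2, with a range of 692 to 1381. With the scalings named, the median of all genes moved from -0.03 to as far as -0.19 for hormone in both siRNA backgrounds, from 0.01 to 0.10 and from 0.02 to 0.11 for CEBPA siRNA, and from 0.02 to 0.17 for ICRF minus siControl. The cause was not tested in any of these cases.

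The labels do not say that replicate numbers mark a shared culture or batch, and the data were mixed. Deviations of same-numbered libraries correlated at 0.207 to 0.24 among untreated siControl, untreated siCEBPA and siCEBPA progestin, at 0.0125 to 0.0297 between each of these and siControl progestin, and at -0.12 to 0.0545 where an ICRF group was involved. With the replicate number as a block, the difference between siCEBPA and siControl hormone responses had 2271 calls over all genes, against 1329, and 3 genes lower, and 2 genes (RRM2B and FAS) had opposite calls for CEBPA siRNA. Over the single genes the block gained 12 calls. Depth limits EDA2R, PLK3 and BBC3 most, and 2 libraries per group leave each standard error resting on spread shared across genes.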
